A study of Mus musculus with 4 samples.

Results

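The genes described here are 58 developmental homeobox genes that lie outside the Hox clusters. They were chosen by name, as the Pax, Lhx, Isl, Six2, Six3, Six6, Nkx, Dlx, Irx, Otx, Gsc, Pitx, Emx, En, Gbx, Hhex, Msx, Barhl, Meis, Cdx and Evx genes on a list whose rule holds no measured value, although the list was drawn up with earlier results of these data known. They are 58 of the 22380 protein-coding genes in the annotation of the mouse genome build mm9. The data are ChIP-seq peak lists from the mouse embryonic stem (mES) cell line E14, strain 129/Ola, with no engineered allele named in the labels. All 4 libraries came from cells kept without feeders in 2i+LIF, that is, the MEK inhibitor PD0325901 at 1 µM, the GSK inhibitor CHIR99021 at 3 µM and LIF at 1000 U/ml. Cells were fixed for 10 min in 1% formaldehyde. Chromatin was taken down with antibodies raised in rabbits against Dzip3, Ring1B or ubiquitylated histone H2A (ubH2A), or was sequenced without an antibody as input DNA. The comparison asked where the 2 ubiquitin ligases and the mark lie relative to these genes. There was 1 library for each target and no treated group, so no value below has a replicate error and no test was possible.

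Homeobox genes encode transcription factors that bind DNA through a homeodomain and lay out the body axes and organs of the embryo. In pluripotent cells many of them are silent and are held by Polycomb repressive complexes. Ring1B is the catalytic subunit of Polycomb repressive complex PRC1, which places ubiquitin on histone H2A. Dzip3 is another E3 ubiquitin ligase for H2A. Polycomb complexes are known to gather at CpG islands, stretches rich in unmethylated CG dinucleotides, at the starts of developmental genes. The name of the group needs a qualification from textbook knowledge, since Pax1 and Pax9 carry a paired domain without a homeodomain, and Pax2, Pax5 and Pax8 keep only part of one. Peak lists hold no RNA levels, so markers of the cell type could not be checked.

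The library sizes implied by the listed RPM (reads scaled to 1 M reads of the library) lay between 48.3 and 67.0 M reads. Peaks numbered 10119 for Ring1B, 6482 for Dzip3, 6642 for ubH2A and 6804 for input DNA. The height of the lowest listed peak was 0.619 RPM for Dzip3, 0.599 RPM for Ring1B, 0.477 RPM for ubH2A and 0.311 RPM for input DNA, so absence of a peak is no call at or above these heights. Stretches of the ubH2A and input lists on chromosomes 1, 10, 11 and 12 were not analysed here, which left 49 of the 58 genes for which ubH2A peaks within 10 kb could be scored and 45 for input peaks. Reads are counts of each library in a peak as the authors listed them. Ratios to input DNA are scaled to library size, and the 95% intervals beside single ratios cover counting error only.

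The stretches below come from the middle of the Ring1B peaks that held the most Ring1B reads, 150 bases each clear of annotated UTRs, printed 5′ to 3′ on the plus strand of mm9 with each CG dinucleotide in capitals. They lie inside Isl2 at chr9:55390861-55391010, Six2 at chr17:86085807-86085956 and Nkx2-1 at chr12:57635052-57635201. CG occurred 1 time in the Isl2 stretch, 6 times in the Six2 stretch and 5 times in the Nkx2-1 stretch. The stretches do not stand for the whole peaks. The whole Isl2 peak held 182 CG, or 5.91 per 100 bp, and the whole Nkx2-1 peak 195, or 8.07 per 100 bp.
Isl2 Ring1B peak: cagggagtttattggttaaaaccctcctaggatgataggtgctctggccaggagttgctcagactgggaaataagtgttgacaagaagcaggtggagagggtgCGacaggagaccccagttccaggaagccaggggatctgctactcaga
Six2 Ring1B peak: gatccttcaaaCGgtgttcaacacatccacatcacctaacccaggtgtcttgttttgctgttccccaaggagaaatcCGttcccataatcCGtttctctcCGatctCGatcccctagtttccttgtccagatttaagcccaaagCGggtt
Nkx2-1 Ring1B peak: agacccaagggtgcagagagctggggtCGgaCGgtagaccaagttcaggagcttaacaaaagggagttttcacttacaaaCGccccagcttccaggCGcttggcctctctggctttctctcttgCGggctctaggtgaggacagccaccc

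The next stretches come from 3 of the 4 Dzip3 peaks within 10 kb of these genes, near Nkx6-2 at chr7:146759811-146759960, near Hhex at chr19:37519667-37519816 and near Barhl1 at chr2:28778708-28778857, and from the ubH2A peak near Nkx2-3 at chr19:43694667-43694816, on the plus strand with the same use of capitals. They are shown because they carry the few peaks of these lists. The Hhex stretch is a run of the unit cctctg, and the Barhl1 stretch is rich in alternating t and g. The fourth Dzip3 peak, near Lhx5, lies in an annotated UTR and is not printed.
Nkx6-2 Dzip3 peak: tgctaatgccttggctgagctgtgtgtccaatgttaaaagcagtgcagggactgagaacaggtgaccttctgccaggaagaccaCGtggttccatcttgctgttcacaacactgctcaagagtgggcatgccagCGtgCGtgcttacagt
Hhex Dzip3 peak: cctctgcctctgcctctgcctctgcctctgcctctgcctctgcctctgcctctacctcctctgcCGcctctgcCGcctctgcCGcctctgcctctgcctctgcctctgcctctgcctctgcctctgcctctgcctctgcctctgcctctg
Barhl1 Dzip3 peak: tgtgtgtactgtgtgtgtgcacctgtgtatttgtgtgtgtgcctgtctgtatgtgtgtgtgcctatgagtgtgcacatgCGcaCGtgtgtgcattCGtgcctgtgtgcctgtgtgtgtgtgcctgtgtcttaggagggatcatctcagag
Nkx2-3 ubH2A peak: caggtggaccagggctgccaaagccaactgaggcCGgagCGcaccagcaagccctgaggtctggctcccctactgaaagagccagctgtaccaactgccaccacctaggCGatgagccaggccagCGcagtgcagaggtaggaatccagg

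Ring1B peaks lay near nearly all of these genes, whereas peaks of the other lists were few. A Ring1B peak was listed within 10 kb of an annotated transcription start site (TSS) for 55 of the 58 genes, 94.8%, against 14.2% of all protein-coding genes. The exceptions were Isl1, Otx2 and Meis2. Within 4 kb the count was 54 genes, and Hhex was the gene lost. The background share at that distance was 10%. Dzip3 peaks were listed within 10 kb of 4 genes, Lhx5, Hhex, Nkx6-2 and Barhl1, a share of 6.90% against 6.37% of all protein-coding genes. All 4 also had a Ring1B peak, and the background share of genes with both was 3.24%. Since 55 of the 58 genes had a Ring1B peak, this pairing follows largely from that count and says little about Dzip3. ubH2A peaks were listed near 2 of the 49 genes that could be scored, Hhex and Nkx2-3, a share of 4.08% against 6.79%. No input peak was listed near any of the 45 genes that could be scored, where the background was 3.01%. For Ring1B the share of these genes was thus far above the background, and for the other lists it was close to the background or under it.

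**Figure D1:**
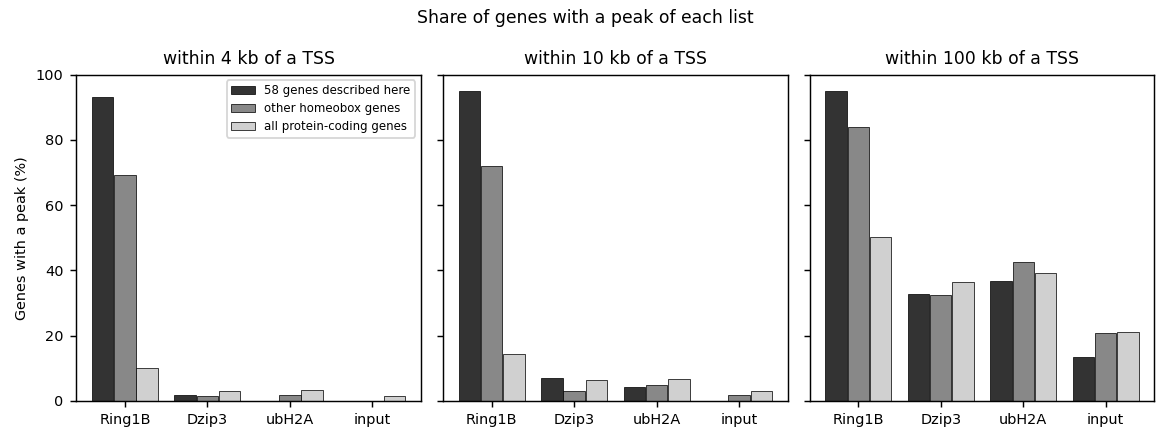
Share of genes in percent (vertical axis) with a peak of each list within 4, 10 or 100 kb of a TSS, for the 58 genes described here, 68 other homeobox genes and all protein-coding genes. Genes in the stretches not analysed of the ubH2A and input lists are left out of the bars for those lists. The Ring1B bar of the 58 genes reaches 94.8% at 10 kb, and their Dzip3 bar stands at 6.90% beside 6.37% for all protein-coding genes.

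Homeobox genes that are not members were counted the same way. Of 68 other homeobox genes outside the Hox clusters, 49 had a Ring1B peak within 10 kb (72.1%), 2 had a Dzip3 peak, and 3 of 61 had a ubH2A peak. Of the 39 Hox genes, which pattern the head-to-tail axis, 36 had a Ring1B peak (92.3%) and 2 had a Dzip3 peak, and none of the 29 that could be scored had a ubH2A or input peak. In each of these sets, as in the 58 genes, Ring1B peaks were common and Dzip3 peaks were few.

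Ring1B at these genes took the form of several peaks in a row. The 55 genes had 328 distinct Ring1B peaks within 10 kb, and 2 of these peaks were counted for both Dlx1 and Dlx2, which are neighbours. The number per gene ranged from 1 to 16 with a median of 6, where the median over the 3185 protein-coding genes with a Ring1B peak was 1. At least 5 Ring1B peaks were listed for 37 genes (67.3%, background 7.63%) and at least 10 for 7 genes, a count without a background share. The peaks of a gene covered a median of 3154 bp, against 369 bp over all genes with a Ring1B peak. Several peaks per gene were also found at the sets most like this one. Among the Hox genes with a Ring1B peak the median was 7.5 peaks covering 3298 bp and 72.2% had at least 5, and among the other homeobox genes it was 3 peaks covering 2426 bp and 44.9% had at least 5. Of the 328 peaks, 47 were longer than 1 kb (14.3%, background 7.69%). The share was 18.2% near the other homeobox genes and 8.46% near Hox genes. Such a peak was listed for 30 of the 58 genes, a count without a background share. The lengths are those set by the peak caller, and neighbouring peaks were not merged.

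**Figure D2:**
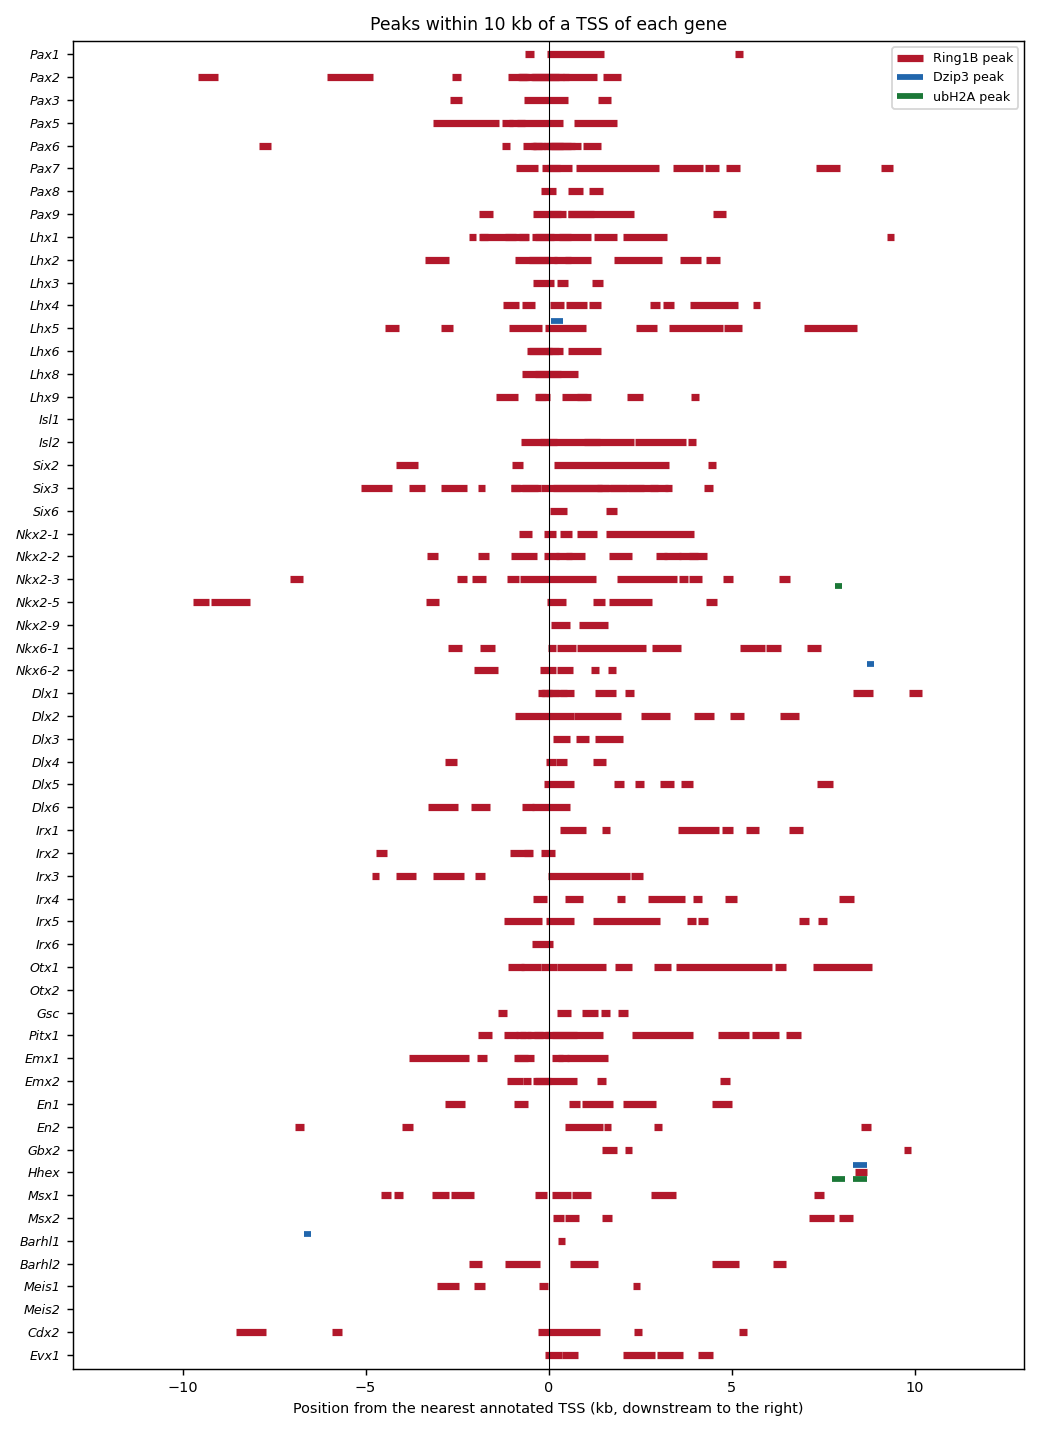
Peaks of the Ring1B, Dzip3 and ubH2A lists within 10 kb of each of the 58 genes (one line per gene), by position in kb from the nearest annotated TSS of the gene with downstream to the right. Ring1B peaks sit in rows around the TSS of most genes, Dzip3 peaks appear only for Lhx5, Nkx6-2, Hhex and Barhl1, ubH2A peaks only for Nkx2-3 and Hhex, and the lines of Isl1, Otx2 and Meis2 are empty.

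A Ring1B peak spanned an annotated TSS in 37 of the 55 genes (67.3%, background 21.8%). The share was 38.9% for the Hox genes and 36.7% for the other homeobox genes with a Ring1B peak. Genes differ in their number of annotated TSSs, such as 29 for Pax6 and 1 for Lhx5, and the shares were not adjusted for this. With each peak counted once, 178 of the 328 peaks lay downstream of the nearest TSS of the gene, 98 lay upstream and 52 spanned a TSS. The middle of the peak fell in an intron for 131 peaks, between genes for 80, in a coding exon for 61, in a UTR exon for 41 and in another exon for 15. For 320 peaks the nearest protein-coding TSS was that of one of the 58 genes. The annotated gene at the middle of a peak could be a neighbour, as for a Cdx2 peak in Prhoxnb. Downstream includes positions past the end of the gene. Upstream is set by the nearest of several TSSs and can include positions inside the gene, as for peaks in an intron of Emx1. No shares over all Ring1B peaks are given for these positions, so no preference for a side is read from the counts.

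The Pax genes, regulators of eye, kidney, muscle, neural crest and B cell development, had 49 Ring1B peaks, and all 8 genes had at least 3. Covered length ran from 1193 bp at Pax8, a regulator of thyroid development, to 7312 bp at Pax2, a regulator of kidney development. In the strongest peak of Pax2, the one with the most Ring1B reads, there were 1012 Ring1B, 73 Dzip3, 96 ubH2A and 11 input reads, a Ring1B ratio to input of 85.8 (47.8 to 173). It lies at chr19:44831053-44832423 and spans a TSS. The strongest peak of Pax9, which acts in tooth and thymus development, held 1288 Ring1B, 58 Dzip3, 73 ubH2A and 24 input reads, a ratio of 50.1 (33.5 to 78.4). In Pax6, a master regulator of eye development, it held 632 Ring1B, 58 Dzip3, 22 ubH2A and 2 input reads. In Pax8 it held 141 Ring1B, 12 Dzip3, 24 ubH2A and 0 input reads, at least 43.9-fold more Ring1B than input when input is set to 3 reads. Ring1B exceeded the other libraries in each of these peaks, which were called on Ring1B and chosen for their Ring1B reads. Pax1, Pax3, Pax5 and Pax7 lay between, with 3 to 9 peaks covering 1910 to 6633 bp.

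Of the 10 LIM homeobox genes, which specify motor neurons, limb and forebrain cells, 9 had Ring1B peaks, 58 in all, and the exception was Isl1. Isl2, a regulator of motor neuron identity, had the peak with the most Ring1B reads in the whole group, 2243 Ring1B reads at chr9:55389397-55392476 beside 81 Dzip3, 182 ubH2A and 28 input reads. Its Ring1B ratio to input was 74.7 (51.6 to 113), its ubH2A ratio 4.68 (3.13 to 7.24) and its Dzip3 ratio 2.62 (1.69 to 4.19). Lhx1, which acts in head and kidney formation, had 11 peaks, and its strongest held 801 Ring1B, 68 Dzip3, 52 ubH2A and 10 input reads, a Ring1B ratio of 74.7 (40.4 to 156). Lhx8, a regulator of cholinergic neurons, had only 2 peaks, of which the stronger held 1076 Ring1B, 56 Dzip3, 64 ubH2A and 22 input reads, a Ring1B ratio of 45.6 (30.0 to 73.1). Lhx1 and Lhx8 were shown for the high Ring1B density (RPM per kb of peak) of their strongest peaks. Their ratios therefore cannot show how Ring1B varies with the number of peaks. The density was 13.7 at Lhx8, and 6.18 and 7.16 at the other genes with 2 peaks, Six6 and Nkx2-9. The median over the strongest peaks of the 55 genes was 9.67. Lhx2, Lhx3, Lhx4, Lhx5, Lhx6 and Lhx9 had 3 to 9 peaks covering 1193 to 6735 bp.

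The genes Six2, Six3 and Six6 had 22 Ring1B peaks, of which 16 belonged to Six3. Six3, which acts in forebrain and eye formation, had the most peaks and the longest covered length of the group, 10391 bp. Its strongest peak spans a TSS and held 995 Ring1B, 39 Dzip3, 38 ubH2A and 8 input reads, a Ring1B ratio of 116 (58.7 to 269). Six2, which keeps nephron progenitors, had 4 peaks, and one of them, at chr17:86084319-86087446, was the longest of the group at 3127 bp with 1696 Ring1B, 96 Dzip3, 74 ubH2A and 20 input reads. Six6, a regulator of the pituitary and retina, had 2 peaks covering 789 bp. The peaks of these 3 related genes thus ranged from 2 to 16 in number.

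All 7 Nkx genes, regulators of the thyroid, lung, heart, pancreas and ventral neural tube, had Ring1B peaks, 49 in all. Nkx2-2, which acts in the pancreas and ventral neural tube, had the second highest Ring1B density of any strongest peak, 15.7 RPM per kb of peak. That peak held 514 Ring1B, 41 Dzip3, 44 ubH2A and 1 input reads, and with a single input read the Ring1B ratio of 480 has an interval from 85.7 to 18979. Nkx2-1, a regulator of lung and thyroid, held 1656 Ring1B, 84 Dzip3, 103 ubH2A and 18 input reads in a peak of 2417 bp at chr12:57633919-57636336, a ratio of 85.8 (54.1 to 145). Both peaks start downstream of the TSS. Nkx2-3, Nkx2-5, Nkx2-9, Nkx6-1 and Nkx6-2 had 2 to 10 peaks covering 1303 to 6207 bp.

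The 6 Dlx genes, which pattern the jaw, limbs and forebrain interneurons, had 30 Ring1B peaks. The strongest peak of Dlx2 spans a TSS and held 1112 Ring1B, 91 Dzip3, 59 ubH2A and 8 input reads, a Ring1B ratio of 130 (65.6 to 301). Dlx4 had the lowest Ring1B ratio of any strongest peak, 5.44 (3.28 to 9.54), from 105 Ring1B, 12 Dzip3, 25 ubH2A and 18 input reads. In this peak the Dzip3 ratio was 0.604 (0.266 to 1.33) and the ubH2A ratio 1.00 (0.524 to 1.95), so neither stood above input there at this depth. The other Dlx4 peaks, with 69 to 83 Ring1B and 2 input reads each, had Ring1B ratios of 32.2 to 38.7. Their Dzip3 ratios were 3.63 to 16.3 and their ubH2A ratios 6.48 to 13.7. Dlx1, Dlx3, Dlx5 and Dlx6 had 3 to 9 peaks covering 1590 to 3641 bp.

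All 6 Irx genes, which pattern the neural plate, heart and limb, had Ring1B peaks, 31 in all. Covered length ran from 563 bp at Irx6, which had a single peak, to 4722 bp at Irx5. The strongest Irx3 peak spans a TSS and held 1222 Ring1B, 112 Dzip3, 73 ubH2A and 11 input reads. Irx1, Irx2 and Irx4 had 4 to 7 peaks.

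Among the paired-like genes, Otx1, Gsc and Pitx1 had 26 Ring1B peaks between them and Otx2 had none. Otx1, which acts in brain and sense organ development, had 9 peaks covering 8245 bp, and its strongest held 1397 Ring1B, 92 Dzip3, 176 ubH2A and 25 input reads. Pitx1, which gives the hindlimb its identity, had 12 peaks covering 8129 bp, and its strongest held 1162 Ring1B, 76 Dzip3, 92 ubH2A and 30 input reads, a Ring1B ratio of 36.1 (25.2 to 53.8). Gsc, a gene of the gastrula organizer, had 5 peaks covering 1620 bp. Otx1 and Otx2, close relatives, thus differed in that Ring1B peaks were listed at Otx1 alone.

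The genes Emx1, Emx2, En1, En2, Gbx2, Hhex, Msx1, Msx2, Barhl1 and Barhl2 act in the cortex, the midbrain and hindbrain, the liver and the craniofacial skeleton, and all 10 had a Ring1B peak. They had 49 peaks between them and a median covered length of 2523.5 bp. Emx1, a gene of the developing cortex, held 825 Ring1B, 49 Dzip3, 52 ubH2A and 14 input reads in its strongest peak, a Ring1B ratio of 55.0 (32.6 to 101). Gbx2, which sets the border of midbrain and hindbrain, had the lowest Ring1B density of any strongest peak, 5.57 RPM per kb, and its nearest Ring1B peak lay 1.463 kb from a TSS. Hhex and Barhl1 had 1 Ring1B peak each, of 330 and 200 bp. The remaining members are Cdx2, Evx1 and the Meis genes. Cdx2, the caudal factor of trophectoderm and intestine, had 5 Ring1B peaks, and the strongest spans a TSS and held 1199 Ring1B, 72 Dzip3, 47 ubH2A and 6 input reads, a ratio of 186 (85.4 to 509). Evx1, a gene of the primitive streak and spinal cord, had 5 peaks and Meis1, a cofactor of Hox proteins, had 4. Meis2 had none.

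**Figure D3:**
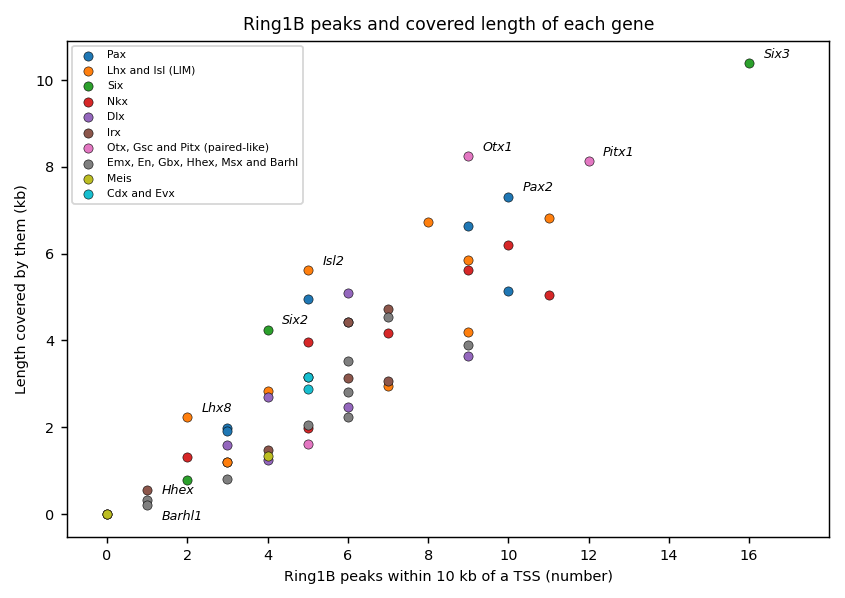
Number of Ring1B peaks within 10 kb of a TSS (horizontal axis) against the length they cover in kb (vertical axis), with 1 point for each of the 58 genes coloured by family. Six3 stands at the top right with 16 peaks over 10391 bp, Isl2 and Six2 cover more than most genes with 5 and 4 peaks, and Hhex and Barhl1 lie at the bottom left with 1 peak each.

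Within the Ring1B peaks, reads of Dzip3 and ubH2A were above input DNA by a small factor. Over the 328 peaks the median density was 6.64 RPM per kb for Ring1B, 0.803 for Dzip3, 0.713 for ubH2A and 0.199 for input DNA, where reads spread evenly over the sequenced genome would give 0.391. The median ratio to input, with 1 read added to both libraries, was 28.8 for Ring1B, 3.31 for Dzip3 and 2.88 for ubH2A. The quartiles were 16.9 and 58.6 for Ring1B, 1.81 and 6.12 for Dzip3, and 1.84 and 4.80 for ubH2A. Over the 4904 Ring1B peaks within 10 kb of any protein-coding TSS the medians were 21.7, 4.53 and 4.14. The Ring1B ratio of the 328 peaks was thus above and the other 2 were below. Ring1B density itself differed little, with a median of 6.18 RPM per kb in the 4904 peaks beside 6.64 here. An input peak overlapped 8.67% of the 4904 peaks and 0% of the 328, and its part in the ratios was not tested. Near the other homeobox genes the median ratios were 32.8, 3.45 and 3.48, and near Hox genes 22.9, 2.66 and 2.31. The ratio was over 2 for Ring1B in all 328 peaks (background 93.8%), for Dzip3 in 237 (72.3%, background 77.9%) and for ubH2A in 236 (72.0%, background 78.4%). Because the peaks were called on the Ring1B library, its own level in them was raised by that choice, and the levels of Dzip3, ubH2A and input DNA were not used to call them. Input DNA was below the even spread in these peaks, and its part in the ratios was not tested.

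Few called peaks of the other lists overlapped these Ring1B peaks. A Dzip3 peak overlapped 2 of the 328 Ring1B peaks (0.61%, background 15.3%), those of Hhex and Lhx5. A ubH2A peak overlapped 1 (0.305%, background 16.4%), that of Hhex, and an input peak overlapped 0 (background 8.67%). The background peaks held more Dzip3 reads as well, with a median of 1.37 RPM per kb, and more ubH2A reads, with 1.19. Input density was close, 0.222 against 0.199 RPM per kb. The low overlap and density were shared by the sets most like this one. A Dzip3 peak overlapped 0.478% of the Ring1B peaks near the other homeobox genes and 0.769% of those near Hox genes, and a ubH2A peak overlapped 1.44% and 0%. The median Dzip3 density in these peaks was 0.740 RPM per kb near the other homeobox genes and 0.753 near Hox genes.

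Across the strongest Ring1B peaks of the 55 genes, Dzip3 reads ran from 11 at Barhl1 over a median of 53 to 862 at Hhex, and ubH2A reads from 10 at Meis1 over a median of 53 to 182 at Isl2. Input reads ran from 0 to 38 with a median of 8, and Ring1B reads from 59 to 2243 with a median of 531. The ubH2A ratio to input, with 1 read added, was over 2 in 51 genes and the Dzip3 ratio in 49. Over the 4904 Ring1B peaks near any protein-coding TSS, it was over 2 for ubH2A in 78.4% and for Dzip3 in 77.9%. Those are all peaks, and no share is given for the strongest peak of each gene. The Ring1B ratio was over 5 in all 55 genes, a value raised by choosing the peak with the most Ring1B reads. Among the strongest peaks that did not overlap a Dzip3 peak, that of Evx1 had the highest Dzip3 density, from 324 Ring1B, 83 Dzip3, 56 ubH2A and 2 input reads. In En1, which marks the midbrain and hindbrain, 510 Ring1B reads stood beside 14 Dzip3, 40 ubH2A and 8 input reads, a Dzip3 ratio of 1.59 (0.621 to 4.37) whose interval includes no difference from input. In the strongest peak of Meis1, 226 Ring1B reads stood beside 10 ubH2A and 8 input reads, a ubH2A ratio of 0.901 (0.320 to 2.63). These values do not stand for the whole genes. The other Meis1 peaks had ubH2A ratios of 1.92, 7.57 and, with input set to 3 reads, at least 4.32. Where input was not 0, the other En1 peaks had Dzip3 ratios from 0.349 to 13.6. Evx1, En1 and Meis1 were singled out after their values were seen. As a description over the 55 peaks, which share the same 4 libraries, the Spearman correlation of Ring1B density with the density of ubH2A was -0.06, with Dzip3 0.02 and with input DNA -0.09. Pearson's r was 0.41 with ubH2A, 0.51 with Dzip3 and -0.20 with input DNA. Without Hhex, left out after the values were seen because it has the highest Ring1B density, Pearson's r over 54 peaks was -0.11, -0.07 and -0.16, so the positive values with ubH2A and Dzip3 rested on Hhex.

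**Figure D4:**
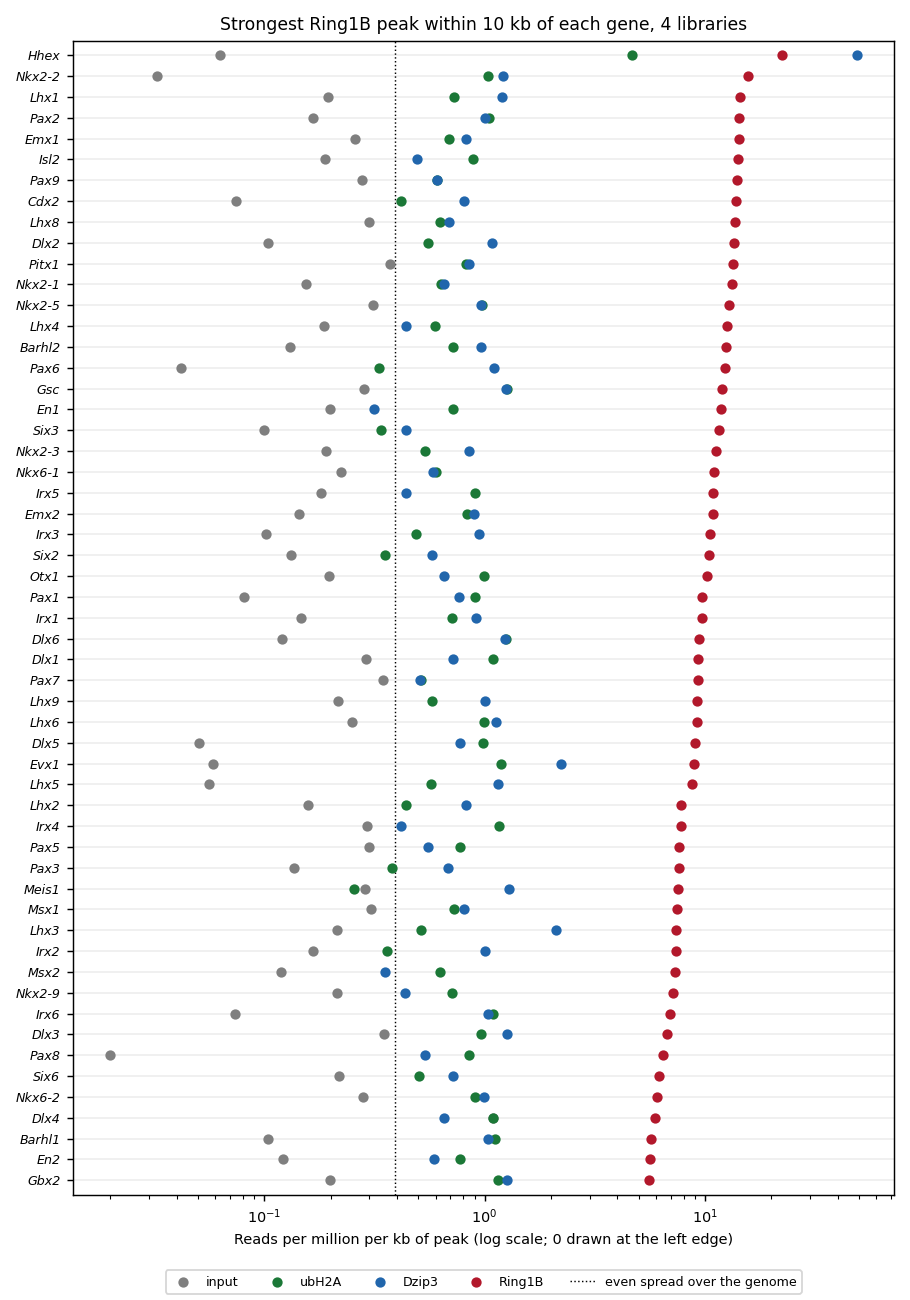
Density of reads of the 4 libraries, in RPM per kb of peak on a log scale, in the strongest Ring1B peak of each of the 55 genes, ordered by Ring1B density, where the dotted line is an even spread over the sequenced genome and the input value of 0 for Pax8 is drawn at the left edge. Ring1B lies between 5.57 and 22.4 in every gene, Dzip3 and ubH2A lie near 0.827 and 0.727 at their medians, and Hhex is the only gene where Dzip3, at 49.0, exceeds Ring1B.

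The 4 Dzip3 peaks near these genes differed in position and content. At Lhx5, a LIM homeobox gene of the forebrain and cerebellum, the Dzip3 peak at chr5:120881968-120882282 starts 73 bp downstream of the TSS. It was the only Dzip3 peak within 4 kb of any of the 58 genes, where the background was 3.13%. It held 81 Dzip3, 274 Ring1B, 23 ubH2A and 0 input reads. With input set to 3 reads, Dzip3 was at least 24.5-fold and Ring1B at least 85.2-fold above input. The whole of this peak lies within a Ring1B peak of 1123 bp that spans the TSS, so at Lhx5 both ligases were listed at the start of the gene. That Dzip3 peak was low, at 0.713 RPM where the lowest in its list was 0.619 RPM. It was not among the stronger 50% of that list.

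At Nkx6-2, which acts in the ventral neural tube and in myelinating cells, the Dzip3 peak at chr7:146759786-146759986 lies 8.703 kb downstream of the TSS, in an intron of the neighbouring gene Inpp5a. It held 60 Dzip3, 6 Ring1B, 14 ubH2A and 0 input reads, so Dzip3 was at least 18.1-fold above input and Ring1B was low. The 5 Ring1B peaks of Nkx6-2 lay elsewhere, within 1.625 kb of the TSS. At Barhl1, a gene of sensory hair cells and the cerebellum, the Dzip3 peak at chr2:28778683-28778883 lies 6.495 kb upstream. It held 57 Dzip3, 28 Ring1B, 24 ubH2A and 11 input reads, a Dzip3 ratio of 4.70 (2.44 to 9.94). The peaks of Nkx6-2 and Barhl1 were both listed at 0.619 RPM, the lowest height in the Dzip3 list, and neither overlapped a Ring1B peak.

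At Hhex, which acts in liver and forebrain formation, the peaks of 3 lists lay together downstream of the gene. Its Dzip3 peak spans chr19:37519546-37519939 and holds 865 Dzip3, 392 Ring1B, 104 ubH2A and 1 input reads. With a single input read the Dzip3 ratio of 784 has an interval from 140 to 31011. The only Ring1B peak of Hhex, chr19:37519606-37519936, lies within it, 8.377 kb from the nearest annotated TSS, and holds 382 Ring1B and 862 Dzip3 reads. A ubH2A peak at chr19:37519550-37519936 overlaps both, and another ubH2A peak, chr19:37518985-37519317, holds 1539 ubH2A, 61 Ring1B, 46 Dzip3 and 10 input reads, a ubH2A ratio of 111 (60.1 to 232). Of the distinct words of 31 bases in these peaks, 94.9% of those in the Dzip3 peak, 93.2% in the Ring1B peak and 98.3% in the second ubH2A peak occur more than once in mm9, as the cctctg unit printed above shows. In the strongest Ring1B peaks of the 55 genes the median share of repeated words was 0%, and Msx1 with 10.2% was the only other gene above 5%. The part of the repeat in the reads at Hhex was not tested. No Ring1B peak was listed within 4 kb of an annotated TSS of Hhex.

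At Nkx2-3, a gene of spleen and gut development, the ubH2A peak at chr19:43694642-43694842 lies 7.827 kb downstream and held 61 ubH2A, 46 Ring1B, 29 Dzip3 and 0 input reads, so ubH2A was at least 14.7-fold above input. Ring1B and Dzip3 reads also exceeded input there, so ubH2A was not alone in this. The peak was not among the stronger 50% of the ubH2A list. The gene had 10 Ring1B peaks, none of which overlapped this ubH2A peak. The strongest of them held 956 Ring1B, 74 Dzip3, 59 ubH2A and 15 input reads. With Hhex, this completes the ubH2A peaks within 10 kb, and no ubH2A peak lay within 4 kb of the 49 genes, where the background was 3.37%.

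Within 100 kb the picture for the other lists stayed near the background. A Dzip3 peak lay within 100 kb of 19 of the 58 genes (32.8%, background 36.4%), a ubH2A peak of 18 of 49 (36.7%, background 39%) and an input peak of 6 of 45 (13.3%, background 21%). Ring1B remained at 55 genes (94.8%, background 50.3%). Beyond the 4 genes above, the nearest Dzip3 peak lay 17.4 kb from Irx1, 34.8 kb from Lhx2, 36.1 kb from Lhx8, 37.1 kb from Pax7 and 44.0 kb from Emx2. It lay between 48.4 and 96.4 kb from Irx2, Cdx2, Dlx6, Dlx5, Gsc, Evx1, Msx2, Barhl2, Meis1 and Msx1. Dlx5 and Dlx6 shared the same Dzip3 peak. The peak 48.4 kb from Irx2 was in all 4 lists and held 444 Dzip3, 354 Ring1B, 367 ubH2A and 177 input reads, so it was high without an antibody too. The peak 96.4 kb from Msx1 held 402 Dzip3, 338 Ring1B, 340 ubH2A and 4 input reads. The Msx1 peak was thus high in each of the ChIP libraries and low in input DNA.

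The 3 genes without a peak within 10 kb were Isl1, Otx2 and Meis2, which is 6.67% of the 45 genes scored for all lists, against 78.7% of all protein-coding genes. Isl1, a regulator of motor neurons and heart progenitors, had its nearest peak of any list 116.5 kb away. Meis2, a cofactor of Hox and Pax proteins, had its nearest peaks 205.0 to 207.0 kb away. Otx2, which acts in head and forebrain formation, had no ChIP peak within 100 kb, and an input peak 63.4 kb away held 8 Dzip3, 6 Ring1B, 18 ubH2A and 27 input reads. The absence holds at this depth, for a list whose lowest Ring1B peak has 31 extended reads.

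The CG content at the starts of these 3 genes differed. The window of 1 kb around the 5′ end of the gene record held 77 CG dinucleotides in Isl1, 52 in Meis2 and 24 in Otx2, where the 55 genes with a Ring1B peak had a median of 57 and a range from 9 to 123. The median over all protein-coding genes was 41, and over those with a Ring1B peak it was 55. Isl1 and Meis2 were thus above the median of all genes, and Otx2 was below it. The motif searched, CG, reads the same on both strands, and it was found in the 300 bases from 250 before to 50 after the 5′ end in 100% of the 58 genes and in 95.1% of all protein-coding genes. The value for Isl2, the lowest, was taken at the 5′ end of its gene record, while its strongest Ring1B peak spans another annotated TSS. Only this 5′ end was counted for each gene, also where several TSSs are annotated, such as the 7 of Otx2. The 150 bases before the 5′ end are printed for the 3 genes, 5′ to 3′ on the minus strand of mm9 with CG in capitals, from chr13:117099897-117100046 for Isl1, chr14:49287320-49287469 for Otx2 and chr2:115891576-115891725 for Meis2. They hold 20, 5 and 10 CG dinucleotides.
Isl1 upstream: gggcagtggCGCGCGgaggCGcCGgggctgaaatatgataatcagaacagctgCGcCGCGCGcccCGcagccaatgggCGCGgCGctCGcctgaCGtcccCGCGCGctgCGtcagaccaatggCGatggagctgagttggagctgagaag
Otx2 upstream: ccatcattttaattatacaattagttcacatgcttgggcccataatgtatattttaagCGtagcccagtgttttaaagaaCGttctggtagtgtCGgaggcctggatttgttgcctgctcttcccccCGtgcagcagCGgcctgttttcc
Meis2 upstream: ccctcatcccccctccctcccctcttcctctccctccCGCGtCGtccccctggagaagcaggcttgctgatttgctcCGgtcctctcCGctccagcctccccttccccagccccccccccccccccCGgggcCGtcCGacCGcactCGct

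The Ring1B peaks themselves had a median GC content of 59.0% and a ratio of observed to expected CG of 0.609, against 60.0% and 0.578 for Ring1B peaks near any protein-coding gene. As a description over the 55 genes, the Spearman correlation between CG in the window of 1 kb and the covered length was 0.24 and Pearson's r was 0.10. The gene with the most CG in that window, Irx2 with 123, had 4 Ring1B peaks covering 1467 bp, and Six3, with the longest covered length, had 49. The window lies at the 5′ end of the gene record, and the strongest Ring1B peak of Six3 spans another annotated TSS. The order of the genes by CG at that 5′ end and their order by covered length were thus different. CG at the other annotated TSSs was not counted.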

How the data were processed

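ChIP-seq of E14 mES cells was analysed, with 1 library per target and 1 of input DNA. Alignment by the authors was to mm9 with 1 mismatch allowed, and their peaks were called in Partek Genomics Suite (FDR 0.1) for every library, input DNA included; versions are not given in the sources used here. The paper describes fragmentation with micrococcal nuclease and the labels shearing with a Picoruptor. The deposited values are counts of reads per peak and library, heights as RPM (reads scaled to 1 M reads of the library), p-values, a scaled ratio (fold) to input DNA, and the percent of a peak covered by peaks of each list. The authors' p-values are not reported here. Dividing extended reads by RPM gave the library sizes, which differ from the approximate depth that the paper gives.

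Reading left out 2 rows without 18 columns, and the stretch of the ubH2A and input lists at each was not analysed here. TSSs came from GENCODE vM1 (mm9), and every annotated TSS of a gene was used. Distances are from the nearest edge of a peak. Density is RPM per kb of peak. Median ratios add 1 read to both libraries, while single ratios add none, use the exact conditional binomial 95% interval and set an input of 0 to 3 reads. Values in full are given for the 12 genes with the highest Ring1B density in their strongest peak (most Ring1B reads), for genes with a Dzip3, ubH2A or input peak, for genes with no peak, and for members singled out for a highest or lowest value or as family examples after their values were seen. The members and lists were chosen with earlier results of these data known. Functions were tested on simulated data. Alternatives were distance, TSS choice, stronger or equal numbers of peaks, input-overlapping or low-fold peaks left out, complete chromosomes, raw reads and the number of added reads. The software was scipy 1.17.1, numba 0.67.0, matplotlib 3.10.9, pandas 2.3.3 and numpy 2.4.6 under Python 3.11.15.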

Additional observations from a re-analysis of the deposited data

How the results depend on the processing

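No paired analysis was possible because each target has 1 library. The count of genes with a Ring1B peak stayed between 40 and 55 under the alternatives, and the lowest value comes from fewer genes, since only complete chromosomes were used. The count with a Dzip3 peak, 4, was 1 within 4 kb, 19 within 100 kb and 1 with the stronger 50% of the list, and the count with both Ring1B and Dzip3 peaks gave the same 3 values, 1, 19 and 1. The count with a ubH2A peak, 2, was 0 within 4 kb, 18 within 100 kb, 1 with the 5′ end of the gene record only and 1 with the stronger 50% of the list. The count with an input peak, 0, was 6 within 100 kb. These shifts follow from a shorter or longer distance, fewer start sites or fewer peaks. With 3 reads added the median ratio to input fell to 20.3 for Ring1B, 2.72 for Dzip3 and 2.37 for ubH2A. In the strongest peak of each gene it was 50.2, 4.19 and 3.72. From raw reads the ubH2A ratio was 4, since the library is the largest. The other 38 of 56 values under alternatives stayed within the limits set for them. Differences between libraries in antibody or chromatin cannot be told apart from differences between the proteins. Few input reads, 8 at the median, limit each single ratio, and the ubH2A and input lists are incomplete for 9 and 13 genes.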
